A study of Mus musculus with 8 samples.

Results

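The comparison described here is that of mouse aortas taken 3 weeks after the end of an angiotensin II infusion (AngII+3W) with aortas of untreated mice (CTRL). It rests on 4 of the 8 libraries of the series, 2 in AngII+3W and 2 in CTRL, which were chosen by their labels, and it was made over all genes. AngII+3W mice were male C57BL6 mice that received angiotensin II at 2.8 mg/kg/d from a subcutaneous osmotic minipump for 2 weeks, starting at 11 weeks of age, and then no treatment for 3 weeks. CTRL mice were untreated littermates of the same age, taken alongside each of the 3 AngII groups. Which of these time points the 2 sequenced CTRL libraries stand for, and the hour of the day for either group, are not given in the sources used here. Each library holds RNA from a piece of aorta of 2 pooled mice, so that 4 mice stand behind each group and the spread between 2 libraries is a spread between pools. The other libraries, 2 taken at the end of the infusion (AngII) and 2 taken 2 weeks after it (AngII+2W), shared the estimate of the spread and served for direct comparisons.

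Angiotensin II is the effector peptide of the renin-angiotensin system. It contracts vascular smooth muscle, raises blood pressure and, over weeks, remodels the arterial wall. The media of the aorta is built mainly of smooth muscle cells, whose contractile state depends on smooth muscle actin, myosin and their binding proteins. Many of these genes are activated by serum response factor (SRF) together with its coactivator myocardin at a DNA element called the CArG box. Smooth muscle cells that leave the contractile state lose these transcripts. In RNA of whole tissue, fewer smooth muscle cells and less contractile RNA in each cell cannot be told apart.

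The total count of the 4 libraries was between 18130441 and 21005621. AngII+3W replicate 1 stood apart because it carried RNA of striated muscle. Markers of skeletal muscle made up 0.401% of its counts against 0.00595% in AngII+3W replicate 2 and 0.0144 to 0.0212% in CTRL, and Acta1, skeletal muscle actin, had 7075 counts there against 6 to 39 in the other 3 libraries. Cardiac muscle markers made up 0.535% of counts in AngII+3W replicate 1, 0.0369% in replicate 2, and 0.493 and 0.229% in CTRL. The share of counts from the mitochondrial genome was 18.3 and 13.5% in AngII+3W and 13 and 10.6% in CTRL. Smooth muscle markers, which define the tissue of the label, were detected in every library. No marker of endothelium (10 genes tested), fibroblasts (10), macrophages (11), T cells (9), white adipocytes (8), mast cells (6) or mesothelium (6) was called at an FDR below 0.1. Over all genes tested, 1.23% were lower and 0.198% were higher at this threshold. No call in lists this small is therefore no result about cell content. The summed endothelial share was 0.107 and 0.131% in AngII+3W against 0.107 and 0.132% in CTRL. The fibroblast share was 0.0821 and 0.181% in AngII+3W against 0.137 and 0.0878% in CTRL. For mesothelium it was 0.00674 and 0.0028% against 0.00464 and 0.00711%. Of 5 red blood cell markers, the hemoglobin genes Hba-a1 (-2.38, FDR 0.0657) and Hba-a2 (-2.17, FDR 0.0807) were lower in AngII+3W at an FDR of 0.1, with a red blood cell share of 0.11 and 0.0808% against 0.426 and 0.436% in CTRL. The part of these differences in cell content in the results below was not tested. Values without a library are given below but are no test of it, because calls were also lost without libraries outside the comparison.

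After 3 weeks without angiotensin II, most of the genes called against CTRL were lower. Levels are given as CPM, the counts scaled to the size of the TMM-normalized library, changes as log2 fold change of AngII+3W over CTRL with its standard error (SE), and FDR is the Benjamini-Hochberg adjusted p of edgeR's quasi-likelihood test. Of 17182 genes tested, 49 passed an FDR of 0.05, of which 46 were lower (0.268% of the genes tested) and 3 were higher (0.0175%). At an FDR of 0.1, 246 genes passed, of which 212 were lower (1.23%) and 34 were higher (0.198%). The median log2 fold change of all genes was 0.03, and 46.4% of genes were below 0. At an unadjusted p below 0.05 of the same test, 1233 genes were lower and 917 were higher. The 46 lower genes had log2 fold changes from -3.62 to -0.92 with a median of -1.80, whereas the 3 higher genes were Ddx60 (1.24), Tgtp2 (1.04) and Iigp1 (0.99). In all 246 genes, both AngII+3W libraries lay on the same side of both CTRL libraries. This was also true of 3144 lower and 3409 higher genes among all genes tested. A called gene can therefore hardly change direction when a library of the comparison is left out, so that a kept direction is no test of it. The number of calls depended on single libraries. At an FDR of 0.05 it was 1 without AngII+3W replicate 1, 463 without AngII+3W replicate 2, 0 without CTRL replicate 1, 109 without CTRL replicate 2, and 0 when any AngII or AngII+2W library was left out, but all 49 genes kept their direction in each of these fits.

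**Figure D1:**
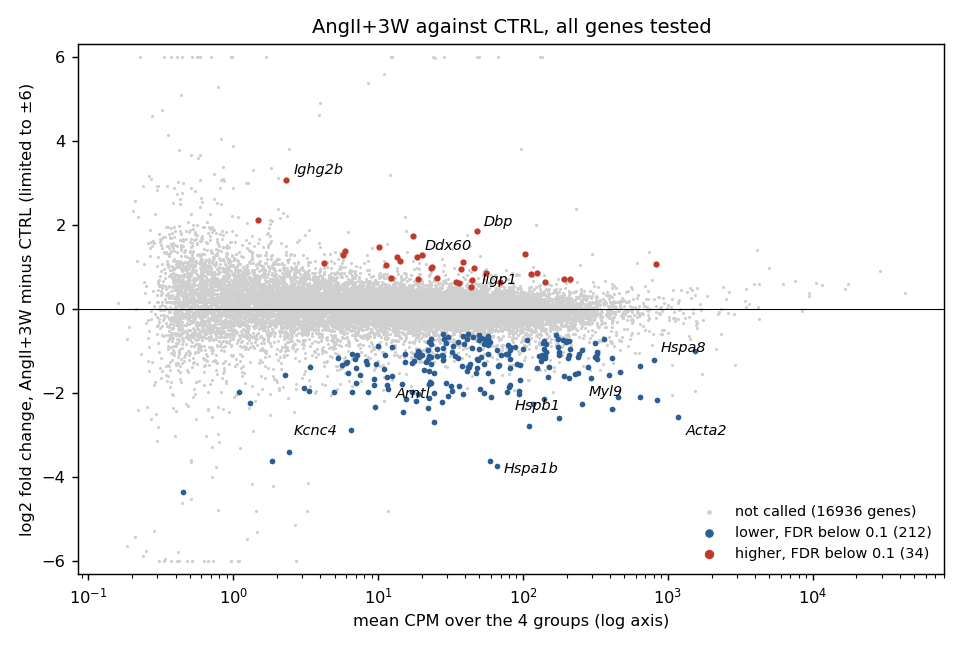
Log2 fold change of AngII+3W over CTRL (y axis, limited to ±6) against the mean CPM over the 4 groups (x axis, log scale), with 1 point for each of 17182 genes. The 212 lower genes (blue) and 34 higher genes (red) at an FDR below 0.1 are marked. Most called genes lie below 0, and Acta2 is among the most abundant of them.

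Contractile genes were the group with the most calls. Of 30 genes for the contractile apparatus of smooth muscle, 14 were lower and none was higher at an FDR of 0.1, 27 had a log2 fold change below 0, and the median was -1.27. Acta2 (chr19:34241090-34255590), which encodes the smooth muscle actin that is the standard marker of the contractile state, had 3057 and 2246 CPM in the CTRL libraries and 349.7 and 550.4 CPM in the AngII+3W libraries. The groups were far apart, with a log2 fold change of -2.56 (SE 0.30, FDR 0.0455). Myl9 (chr2:156775420-156781658), the regulatory light chain whose phosphorylation starts contraction, had 576 and 482 CPM in CTRL and 91.3 and 131 CPM in AngII+3W, a log2 fold change of -2.25 (SE 0.20, FDR 0.0357). Tagln, the actin-binding protein SM22α, was at 1036 and 829.5 CPM in CTRL and at 159 and 279.7 CPM in AngII+3W. Its log2 fold change was -2.09 (SE 0.28, FDR 0.0455). Both AngII+3W values of these 3 genes lay well below both CTRL values, and the higher of them was each time that of replicate 2.

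Further genes of the list for actin and its regulators followed the same direction. Actg2, the enteric smooth muscle actin, had 78.2 and 52.7 CPM in CTRL and 13.3 and 14.99 CPM in AngII+3W (log2 fold change -2.21, FDR 0.0455). Cnn1, calponin, which restrains actomyosin, had 339 and 266 CPM in CTRL and 47.9 and 90.2 CPM in AngII+3W (-2.13, FDR 0.0462). Synpo2, an actin-bundling protein of the Z-disc and dense bodies, went from 846 and 656 CPM to 213 and 295 CPM (-1.56, FDR 0.0455). All 11 genes for actin and its regulators were below 0, with a median log2 fold change of -1.56 and 7 called at an FDR of 0.1, including the actin-severing protein Dstn (-1.64, FDR 0.0565) and the tropomyosin Tpm2 (-0.96, FDR 0.0976). Smtn was the least changed of them, at -0.43 and without a call.

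All 7 genes for myosin and its regulators were also below 0, with 4 called. Besides Myl9, these were the essential light chain Myl6 (-1.15, FDR 0.0552), Ppp1r12b (-1.14, FDR 0.0612) and Ppp1r12a (-1.01, FDR 0.0948). Ppp1r12b and Ppp1r12a each encode a subunit that targets myosin phosphatase to myosin. Myh11, the smooth muscle myosin heavy chain, had 3856 and 2978 CPM in CTRL and 766 and 1580 CPM in AngII+3W. The groups did not overlap, but the AngII+3W libraries differed from each other by about 2-fold, and the log2 fold change of -1.54 (SE 0.34, FDR 0.118) did not pass the threshold. Of 12 anchors and intermediate filaments, 3 were lower at an FDR of 0.1. These were Itga8, the integrin chain that ties contractile smooth muscle to its matrix (1587 and 1087 CPM in CTRL, 236 and 390.0 CPM in AngII+3W, log2 fold change -2.09, FDR 0.0455), vinculin (Vcl, -1.19, FDR 0.0616) and Csrp1 (-1.58, FDR 0.0684). Desmin (Des), which is shared with striated muscle, was at 188 CPM in AngII+3W replicate 1 and at 26.2 CPM in replicate 2, against 108 and 75.8 CPM in CTRL.

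Smooth muscle markers together made up 0.984 and 0.800% of counts in CTRL and 0.178 and 0.379% in AngII+3W. The contractile median stayed between -1.79 and -0.99 when any library of the comparison was left out. The number of contractile genes called at an FDR of 0.1 was 4 without AngII+3W replicate 1, 25 without AngII+3W replicate 2, 0 without CTRL replicate 1, 15 without CTRL replicate 2, and 0 or 1 without an AngII or AngII+2W library.

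**Figure D2:**
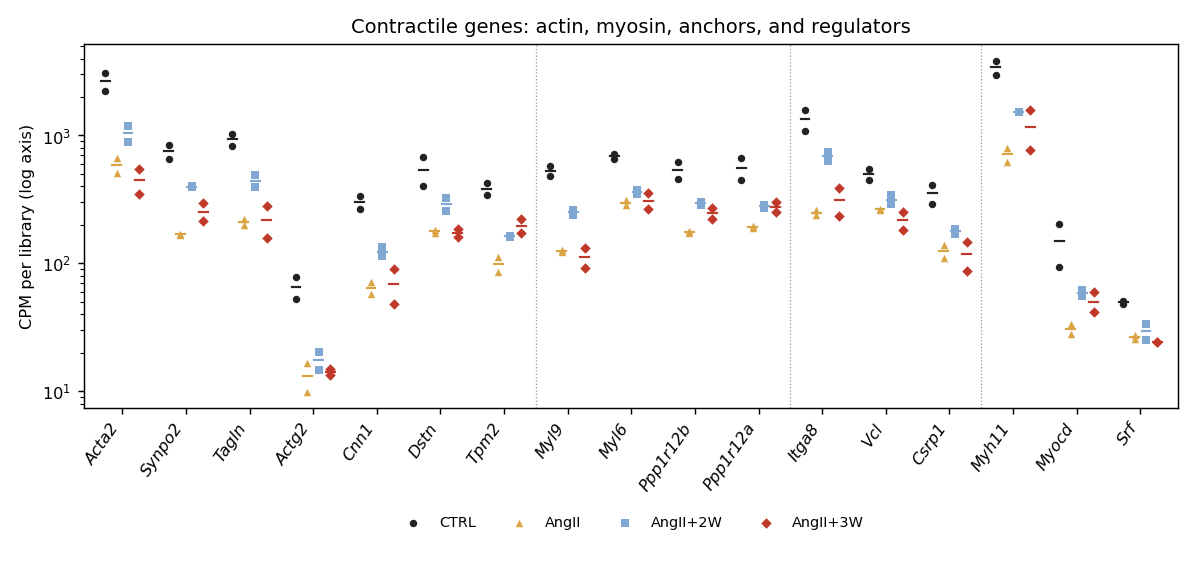
CPM per library (y axis, log scale) of the 14 contractile genes called at an FDR below 0.1 (actin, myosin and anchor groups divided by dotted lines) and of Myh11, Myocd and Srf, with 2 points and a bar at their mean for each group. CPM are not corrected for transcript length and are to be read within a gene. In every gene shown, both AngII+3W points lie below both CTRL points.

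Of the regulators SRF and myocardin, the transcript of SRF was lower at an FDR of 0.1. Srf had 50.7 and 48.4 CPM in CTRL and 24.3 CPM in both AngII+3W libraries, a log2 fold change of -1.03 (SE 0.15, FDR 0.0547). Myocd, which encodes myocardin, had 203 and 94.1 CPM in CTRL and 41.3 and 59.3 CPM in AngII+3W. Its log2 fold change of -1.56 (SE 0.34, FDR 0.115) did not pass the threshold, the CTRL libraries differed from each other by more than 2-fold, and the value was between -2.02 and -0.91 when 1 library was left out. Of 19 coactivators and other regulators of the contractile state, Srf was the only gene called at an FDR of 0.1, and the median was -0.27. No gene of the list was called without AngII+3W replicate 1, without CTRL replicate 1 or without an AngII or AngII+2W library, whereas 4 were without AngII+3W replicate 2 and 2 without CTRL replicate 2. Gata6 was at -0.78 (FDR 0.126).

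The promoters of the called contractile genes were read from RefSeq (mouse build GRCm38.p6, from 250 bases before to 50 bases after each annotated start), which had an entry for 12 of the 14 genes. A CArG box, here a strict match of CC, 6 letters of A or T, and GG on either strand, was found for 3 of these 12 genes (25.0%), for 9 of 172 lower genes at an FDR of 0.1 (5.23%), and for 1.81% of the 27025 genes with a promoter in the table. The 3 stretches are shown because they hold the element that gives SRF its place at contractile genes, and capitals mark the match. The match starts at -161 from the start site in Myl9 (chr2:156775263-156775352, plus strand), at -50 in Myl6 (chr10:128493010-128493099, minus strand) and at -227 in Vcl (chr14:20929148-20929220, plus strand). The promoter of Srf itself held 2 such matches, at -82 and -62.
Myl9: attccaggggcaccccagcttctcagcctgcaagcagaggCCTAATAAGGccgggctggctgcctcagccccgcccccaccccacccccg
Myl6: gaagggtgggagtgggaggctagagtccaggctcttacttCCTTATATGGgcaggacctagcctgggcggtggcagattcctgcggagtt
Vcl: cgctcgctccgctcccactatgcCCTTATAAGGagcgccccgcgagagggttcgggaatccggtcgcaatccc
Each line is 1 stretch on the strand of its gene. A match of letters does not say that a factor was bound in these aortas, and elements further from the start, or with a letter outside the strict pattern, are not seen in this window.

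Single genes for receptors, channels and enzymes through which smooth muscle is relaxed were lower, while most genes of these lists were not called. Ramp1, the accessory protein that makes the calcitonin receptor-like receptor a receptor of the vasodilator CGRP, had 21.4 and 20.2 CPM in CTRL and 5.70 and 6.29 CPM in AngII+3W, a log2 fold change of -1.80 (SE 0.17, FDR 0.0357). Its paralog Ramp2, which directs the same receptor to adrenomedullin, was at 24.1 and 22.6 CPM in CTRL and 21.6 and 27.9 CPM in AngII+3W (0.08, FDR 0.905), with overlapping groups. The ligand Adm, adrenomedullin, was at -0.16 (FDR 0.911). Ramp1 was thus the only called gene of 5 tested for this receptor system.

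Of 25 genes for nitric oxide and cGMP signaling, 4 were lower and none was higher at an FDR of 0.1, with a median of -0.26. Gucy1b1, the beta subunit of the soluble guanylate cyclase that senses nitric oxide, had 79.3 and 57.1 CPM in CTRL and 28.4 and 24.9 CPM in AngII+3W (log2 fold change -1.36, SE 0.17, FDR 0.0455). Its partner subunit Gucy1a1 was at -0.90 (FDR 0.0692), and the natriuretic peptide receptor Npr1, which makes cGMP at the membrane, was also at -0.90 (FDR 0.0842). Kcnmb1, the beta subunit of the calcium-activated potassium channel and a target of this pathway, went from 66.8 and 51.8 CPM to 13.7 and 19.8 CPM (-1.82, SE 0.25, FDR 0.0455). The phosphodiesterases that degrade cGMP had no call among 7 tested genes and a median of 0.34. The count of 4 lower genes for nitric oxide and cGMP signaling was 1 without AngII+3W replicate 1, 9 (and 1 higher) without AngII+3W replicate 2, 0 without CTRL replicate 1, 6 without CTRL replicate 2, and 0 without an AngII or AngII+2W library.

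Potassium channel genes included the largest change of this group. Kcnc4, a voltage-gated potassium channel (chr3:107438303-107459552), had 18.9 and 14.6 CPM in CTRL and 2.26 and 2.31 CPM in AngII+3W. The log2 fold change was -2.87 (SE 0.29, FDR 0.0453). Kcnab1, a cytoplasmic subunit of voltage-gated potassium channels, was at 89.9 and 62.5 CPM in CTRL and at 17.2 and 25.3 CPM in AngII+3W (-1.84, SE 0.23, FDR 0.0455), and Atp1b2, a beta subunit of the sodium pump, was at -0.92 (FDR 0.0455). Kcnc4 was the only call among 23 genes for ion channels and calcium stores of smooth muscle, whose median was -0.12. The called channel subunits Kcnab1 and Kcnmb1 are not members of this list, so that the changes in channel genes were not limited to Kcnc4. The calcium channel subunit Cacnb2 was at -0.86 (FDR 0.272) and the plasma membrane calcium pump Atp2b4 at -0.60 (FDR 0.264).

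Several genes for the contact of cells with matrix and neighbours were called at an FDR of 0.05, all lower. Npnt, nephronectin, the matrix ligand of the integrin that holds the Itga8 chain, had 487 and 284.7 CPM in CTRL and 47.0 and 80.2 CPM in AngII+3W (-2.60, SE 0.33). Ligand and receptor chain were both lower in both AngII+3W libraries. Tes, a focal adhesion protein, was at -1.77, the basement membrane protein Tinagl1 at -1.10, the cadherin Cdh6 at -1.90, the tetraspanin Cd9 at -1.07 and Emb, a partner of monocarboxylate transporters and integrins, at -1.99. Within the 69 genes for extracellular matrix there was no call in either direction at an FDR of 0.1, with a median of -0.34 and 48 genes below 0. This rested on single libraries, since without AngII+3W replicate 2 the median was -0.88 with 27 genes called lower, and without AngII+3W replicate 1 it was -0.02 with none. Without CTRL replicate 2, 4 genes were called lower, and DESeq2 called 12 lower and 1 higher. The matricellular genes Ccn2 (1208 and 551.7 CPM in CTRL, 107 and 230.0 CPM in AngII+3W, -2.38, FDR 0.101) and Ccn1 (-1.91, FDR 0.104) and the TGF-beta-binding protein Ltbp1 (-1.45, FDR 0.111) had the smallest p among them. Elastin (Eln), which was looked at after its values were seen, was at 2218 and 2418 CPM in CTRL and at 289 and 908 CPM in AngII+3W (-1.95, FDR 0.182). The AngII+3W libraries thus differed from each other in Eln by more than 3-fold.

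Sost, which encodes the Wnt inhibitor sclerostin, had 276 and 244 CPM in CTRL and 21.6 and 53.9 CPM in AngII+3W, a log2 fold change of -2.78 (SE 0.37, FDR 0.0455). Wif1, another secreted Wnt inhibitor, was at 7.55 and 4.99 CPM in CTRL and 0.161 and 1.02 CPM in AngII+3W (-3.39, FDR 0.0948), where 0.161 CPM equals the floor of 3 counts in that library. Lgr6, a receptor of the Wnt-enhancing R-spondins, was at -1.12, and Pkdcc, a secreted tyrosine kinase, had 47.4 and 40.5 CPM in CTRL and 14.6 and 15.9 CPM in AngII+3W (-1.52, SE 0.15, FDR 0.0409). Of 26 genes for TGF-beta and BMP signaling, Sost and the BMP target Id2 (-0.77, FDR 0.0868) were called, and the median was -0.39. The count of 2 was 1 without AngII+3W replicate 1, 8 without AngII+3W replicate 2, 5 without CTRL replicate 2, and 0 without CTRL replicate 1 or without an AngII or AngII+2W library. Smad7 was at -0.90 (FDR 0.11).

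Further lower genes at an FDR of 0.05 act in growth arrest and stress signaling. Cdkn1a, the cyclin-dependent kinase inhibitor p21, had 84.5 and 49.2 CPM in CTRL and 19.2 and 16.8 CPM in AngII+3W (-1.89, SE 0.26). Gadd45g, a stress sensor, was at 66.4 and 47.1 CPM in CTRL and at 17.6 and 11.98 CPM in AngII+3W (-1.94, SE 0.24), and Ddit4, an inhibitor of mTOR signaling, at 36.4 and 30.4 CPM and at 14.7 and 16.3 CPM (-1.11, SE 0.14). In these 3 genes the 2 AngII+3W libraries were close to each other and clearly below CTRL. The MAP kinase phosphatase Dusp8 (-1.76), the TWEAK receptor Tnfrsf12a (-2.15) and the growth factor receptor Fgfr2 (-1.47) were also lower. Of 26 genes for longevity and insulin signaling, 3 were called, namely Cdkn1a, the p53 target Trp53inp1 (-1.12, FDR 0.0616) and the extracellular superoxide dismutase Sod3 (-1.08, FDR 0.0842). Of 20 immediate early genes, Fosl2 (-1.24, FDR 0.0764), Dusp1 (-1.08, FDR 0.0847) and Atf3 (-2.36, FDR 0.0942) were lower, and the median was -0.82. Both lists had 3 calls, and both had none without AngII+3W replicate 1, without CTRL replicate 1 or without an AngII or AngII+2W library. Without AngII+3W replicate 2 the immediate early list had 6 calls, and without CTRL replicate 2 it had 5.

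The remaining genes below an FDR of 0.05 are named here with their log2 fold change. Dynll1, a light chain of dynein, had 76.0 and 62.9 CPM in CTRL and 28.4 and 32.6 CPM in AngII+3W (-1.18). Xk, a membrane protein linked to the Kell antigen, had 33.9 and 23.1 CPM in CTRL and 8.71 and 7.84 CPM in AngII+3W (-1.78), and its neighbour on the X chromosome Lancl3 had 26.3 and 16.2 CPM in CTRL and 4.84 and 3.65 CPM in AngII+3W (-2.32). The carboxypeptidase Cpe (-1.63), the creatine kinase Ckb (-1.12), the LIM protein Crip1 (-0.93), the transcription factor Myrf (-0.95), the ubiquitin ligase components Fbxl22 (-1.58), Klhl25 (-1.25) and Sh3rf2 (-1.80), and Map3k7cl (-2.44), Astn2 (-1.65), Efhd1 (-2.07) and Pbxip1 (-1.10) were lower as well. Hist1h2br, a histone H2B gene, had 67 and 60 counts in CTRL and 6 and 3 counts in AngII+3W (-3.62). Its transcript is 99.75% identical over 91.1% of its length to that of Hist1h2bq, which had 8 and 0 counts in CTRL and 28 and 31 counts in AngII+3W (FDR 0.195). Reads of these 2 genes can be split between them in estimation, so that neither value is certain. The study itself selected 13 genes on these same libraries, of which 11 were lower and 1 was higher at an FDR of 0.1, which is not independent evidence of their direction. Of these, Stbd1, a glycogen-binding protein, was at -1.46 (FDR 0.0565), and Gm13034, whose transcript is 97.171% identical to that of Smarca5, had 33 and 28 counts in CTRL and 2 and 0 counts in AngII+3W (FDR 0.107). The protease inhibitor gene Serpina3i had 13 and 15 counts in CTRL and 0 and 1 counts in AngII+3W (FDR 0.0948), below the floor of 3 counts in both AngII+3W libraries.

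Heat shock proteins, the chaperones that keep other proteins folded and that are induced by heat, injury and other stress, were lower in AngII+3W. Of 35 genes tested, 10 were lower and none was higher at an FDR of 0.1, 33 were below 0, and the median was -0.68. Hspb1 (chr5:135887919-135889563), a small heat shock protein that binds actin in smooth muscle, had the smallest p of all genes. It was at 153 and 146 CPM in CTRL and at 35.9 and 40.4 CPM in AngII+3W, with a log2 fold change of -1.97 (SE 0.14, FDR 0.0128). Replicates of Hspb1 differed by little within each group.

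The inducible Hsp70 genes had the largest fold changes but a wide spread in CTRL. Hspa1a was at 297 and 66.2 CPM in CTRL and at 9.14 and 20.4 CPM in AngII+3W (-3.62, SE 0.72, FDR 0.0942), and Hspa1b at 343 and 66.9 CPM and at 10.7 and 20.1 CPM (-3.73, SE 0.74, FDR 0.0942). The 2 transcripts are 99.228% identical over most of their length, so that they are not independent measurements. CTRL replicate 1 was more than 4 times above CTRL replicate 2 in both. The Hsp110 protein Hsph1 had 175 and 99.6 CPM in CTRL and 41.6 and 34.2 CPM in AngII+3W (-1.86, SE 0.26, FDR 0.0455), and the constitutive Hsp70 protein Hspa8 had 1197 and 1086 CPM in CTRL and 555 and 436 CPM in AngII+3W (-1.20, SE 0.18, FDR 0.0547). Hspa2 (-1.44, FDR 0.0603), Hsp90aa1 (-1.06, FDR 0.0616) with its co-chaperones Ahsa1 (-0.68, FDR 0.0616) and Stip1 (-0.86, FDR 0.0616), and the Hsp40 protein Dnajb5 (-1.17, FDR 0.0581) completed the called genes. The longest Hsp90aa1 transcript is 99.468% identical over 68.7% of its length to the pseudogene Gm12346, so that reads can be split between them.

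Among 18 chaperones and stress genes of the endoplasmic reticulum, 3 were lower at an FDR of 0.1 and 17 were below 0, with a median of -0.39. Calr, the calcium-binding lectin chaperone calreticulin, had 406 and 381 CPM in CTRL and 228 and 255 CPM in AngII+3W (-0.71, FDR 0.0976). Manf was at -0.82 (FDR 0.0700) and Sdf2l1 at -1.28 (FDR 0.0942). These 3 calls were 5 without AngII+3W replicate 2, 2 without CTRL replicate 2, and 0 without any other library. The count of 10 called heat shock genes was 2 without AngII+3W replicate 1, 10 without AngII+3W replicate 2, 1 without CTRL replicate 1, 14 without CTRL replicate 2, and 0 or 1 without an AngII or AngII+2W library. The median of the whole heat shock list, with genes called or not, lay between -0.92 and -0.50 when a library of the comparison was left out.

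**Figure D3:**
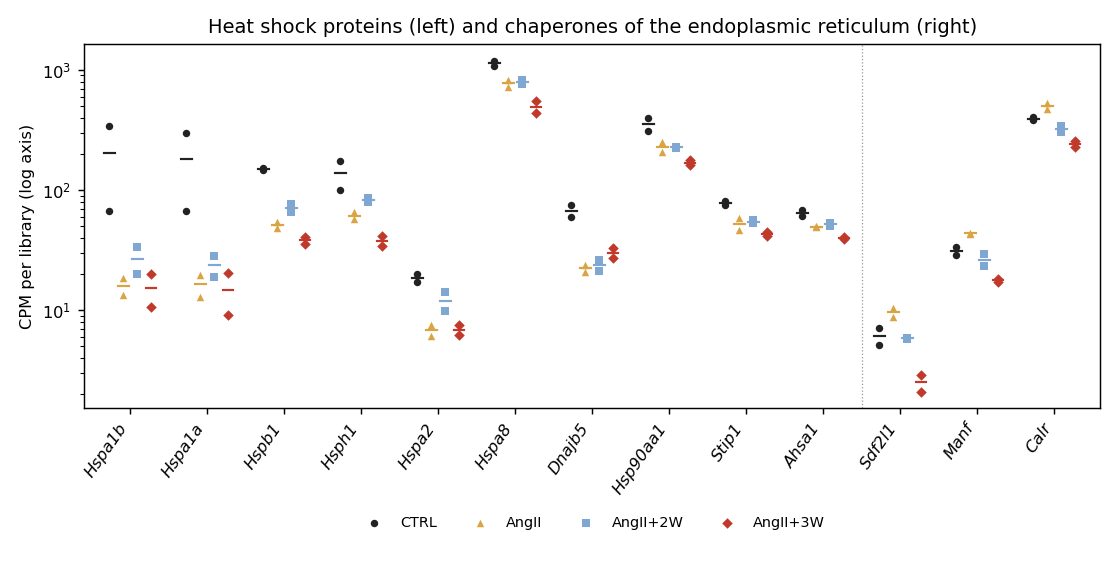
CPM per library (y axis, log scale) of the 10 heat shock genes (left of the dotted line) and 3 chaperones of the endoplasmic reticulum (right) called at an FDR below 0.1, with 2 points and a bar at their mean for each group. All AngII+3W points lie below the CTRL points of their gene, and the 2 CTRL points of Hspa1a and Hspa1b lie far apart.

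Heat shock genes are activated by heat shock factor at repeats of the letters GAA and TTC. RefSeq promoters were found for 8 of the 10 called heat shock genes. The arrangement GAANNTTC, searched on both strands, was present in 4 of these 8 genes (50%), namely Hspb1, Hspa1a, Hspa1b and Hsph1, against 9.04% of all genes with a promoter in the table and 9.30% of all lower genes at an FDR of 0.1. The inverse arrangement TTCNNGAA, which can share letters with the first, was present in Hsph1 (12.5% of the 8 genes, 9.60% of all genes). The stretches of Hspb1 (chr5:135887762-135887869, plus strand) and Hspa1a (chr17:34972213-34972300, minus strand) are shown because these genes had the smallest p and nearly the largest change of the list, and capitals mark GAANNTTC. The stretch of Hspa1b (chr17:34959295-34959382, minus strand) has the same letters as that of Hspa1a.
Hspb1: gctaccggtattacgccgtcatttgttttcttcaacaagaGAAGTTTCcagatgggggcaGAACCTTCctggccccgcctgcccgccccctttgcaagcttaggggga
Hspa1a: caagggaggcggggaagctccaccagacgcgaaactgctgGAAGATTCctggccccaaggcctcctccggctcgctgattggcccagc
Hspb1 holds 2 matches, which start at -117 and -97 from its start site. Hspa1a holds 1, which starts at -104.

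Genes of the circadian clock moved in both directions. The clock is a loop in which BMAL1 (the product of Arntl) and its partners CLOCK or NPAS2 activate their own repressors, so that Arntl, Npas2 and Nfil3 peak at another phase of the day than Dbp, Per3 and the Nr1d genes. Of 5 activators and genes in their phase, 3 were lower at an FDR of 0.1 and the median was -1.77. Of 12 repressors and output factors, 4 were higher, 11 were above 0 and the median was 0.82. Arntl (chr7:113207465-113314126) had 35.7 and 26.3 CPM in CTRL and 8.12 and 10.1 CPM in AngII+3W (-1.77, SE 0.21, FDR 0.0455). Npas2 had 23.5 and 20.2 CPM in CTRL and 3.17 and 6.45 CPM in AngII+3W (-2.18, SE 0.32, FDR 0.0519), and Nfil3, a repressor of the Dbp targets, had 55.1 and 24.7 CPM in CTRL and 5.21 and 7.25 CPM in AngII+3W (-2.68, SE 0.41, FDR 0.0565). In all 3 genes both AngII+3W libraries lay below both CTRL libraries, and the CTRL libraries of Nfil3 differed from each other by more than 2-fold.

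Dbp, the output factor most tightly bound to the clock phase, had 29.7 and 37.4 CPM in CTRL and 104 and 139 CPM in AngII+3W (1.85, SE 0.28, FDR 0.0565). Bhlhe41, a repressor of BMAL1, had 19.6 and 21.8 CPM in CTRL and 40.5 and 41.8 CPM in AngII+3W (0.99, SE 0.16, FDR 0.0616). Per3, a period gene, was at 63.2 and 98.2 CPM and at 197 and 204 CPM (1.31, FDR 0.0826), and Nr1d2, the nuclear receptor REV-ERB beta, at 114 and 96.9 CPM and at 203 and 173 CPM (0.83, FDR 0.0993). The groups did not overlap in any of these 4 genes. The Clock gene itself was at -0.35 and Nr1d1 at 0.14, both without a call.

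The 7 clock genes passed an FDR of 0.05 between AngII+3W and AngII in direct tests in the same fit, as did 276 of all 17182 genes tested. These tests use the same AngII+3W libraries by which the 7 genes were selected, so that they are not independent of the comparison with CTRL. AngII+3W was lower than AngII in Arntl (-2.08, FDR 0.0145), Npas2 (-2.28, FDR 0.0262) and Nfil3 (-2.16, FDR 0.0493) and higher in Dbp (2.98, FDR 0.0145), Nr1d2 (1.46, FDR 0.0206), Bhlhe41 (1.32, FDR 0.0209) and Per3 (2.00, FDR 0.0209). Against AngII+2W, none of the 7 passed an FDR of 0.05. Arntl was at -2.10 (FDR 0.0902), and it was 1 of 2 genes of the whole table below an FDR of 0.1. The other clock genes had FDRs from 0.142 (Dbp) to 0.351 (Nfil3). No gene passed an FDR of 0.05 between AngII+3W and AngII+2W by edgeR's quasi-likelihood test, with 1518 genes at an unadjusted p below 0.05, and this comparison was not run with another tool. The count of 3 lower and 4 higher clock genes was 1 and 1 without AngII+3W replicate 1, 4 and 5 without AngII+3W replicate 2, 0 and 0 without CTRL replicate 1, 3 and 2 without CTRL replicate 2, and 0 without an AngII or AngII+2W library. As the hour of sampling is not given, a difference between groups in the hour cannot be told apart from a difference in the treatment.

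BMAL1 binds the letters CACGTG, called an E-box. RefSeq promoters were found for all 4 higher clock genes, and CACGTG was present in Bhlhe41 alone (25.0%). It was present in 8.09% of all genes with a promoter in the table, in 10.6% of those tested and in 13.6% of all higher genes at an FDR of 0.1. A single gene of 4 does not show an excess. The stretch of Bhlhe41 (chr6:145865528-145865613, minus strand) is shown because this gene is both called and a member of the loop. The match in capitals starts at -153.
Bhlhe41: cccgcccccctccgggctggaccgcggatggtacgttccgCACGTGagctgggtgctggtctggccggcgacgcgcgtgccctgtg
Binding at more distant E-boxes is not covered by this window.

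Some interferon-stimulated genes were among the higher genes. They encode sensors, effectors and immune GTPases that interferons switch on against viruses and intracellular microbes. Of 67 genes tested, 5 were higher and none was lower at an FDR of 0.1, 61 were above 0, and the median was 0.37, against 0.03 for all genes. All 3 higher genes at an FDR of 0.05 belong to this list. Ddx60 (chr8:61928087-62038244), a helicase that assists RNA sensors, had 10.5 and 10.6 CPM in CTRL and 24.1 and 25.9 CPM in AngII+3W (1.24, SE 0.14, FDR 0.0455). Iigp1, an immunity-related GTPase, had 30.1 and 34.9 CPM in CTRL and 59.7 and 68.9 CPM in AngII+3W (0.99, SE 0.13, FDR 0.0455). Tgtp2, of the same family, had 7.89 and 7.29 CPM in CTRL and 15.6 CPM in both AngII+3W libraries (1.04, SE 0.15, FDR 0.0466). Replicates agreed closely in all 3 genes. The Tgtp2 transcript is 99.751% identical to that of its neighbour Tgtp1 on chromosome 11, which was at 0.39 (FDR 0.620), so that the split of reads between them is uncertain. The symbol Tgtp2 stands for 2 genes in the table, and the counts of the list use the one with the smaller p. The other had 6 and 75 counts in CTRL and 65 and 17 counts in AngII+3W (0.20, FDR 0.951), with overlapping groups.

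The guanylate-binding proteins Gbp4 (22.7 and 32.0 CPM in CTRL, 58.4 and 60.9 CPM in AngII+3W, 1.12, FDR 0.0565) and Gbp9 (22.6 and 29.1 CPM, then 50.4 and 49.4 CPM, 0.95, FDR 0.0565) were also higher. All 19 GTPases of the list were above 0, with a median of 0.59 and 4 calls. Isg15 (-0.56) and Isg20 (-0.58) had negative values without a call. Ifi203, an interferon-inducible DNA-binding protein outside the list, had 36.6 and 35.2 CPM in CTRL and 72.6 and 57.6 CPM in AngII+3W (0.86, FDR 0.0616). The 7 genes for MHC class II, with H2-Eb1 at 0.29, H2-DMa at 0.21 and their transactivator Ciita at 0.56, had no call and a median of 0.20, and without AngII+3W replicate 2 the median was -0.63 with 2 genes called lower. The count of 5 called interferon genes was 2 without AngII+3W replicate 1, 5 without AngII+3W replicate 2, 0 without CTRL replicate 1, 5 without CTRL replicate 2, and 0 without an AngII or AngII+2W library, while the median of the list was between 0.20 and 0.51 when a library of the comparison was left out, over 68 genes with both Tgtp2 genes included.

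**Figure D4:**
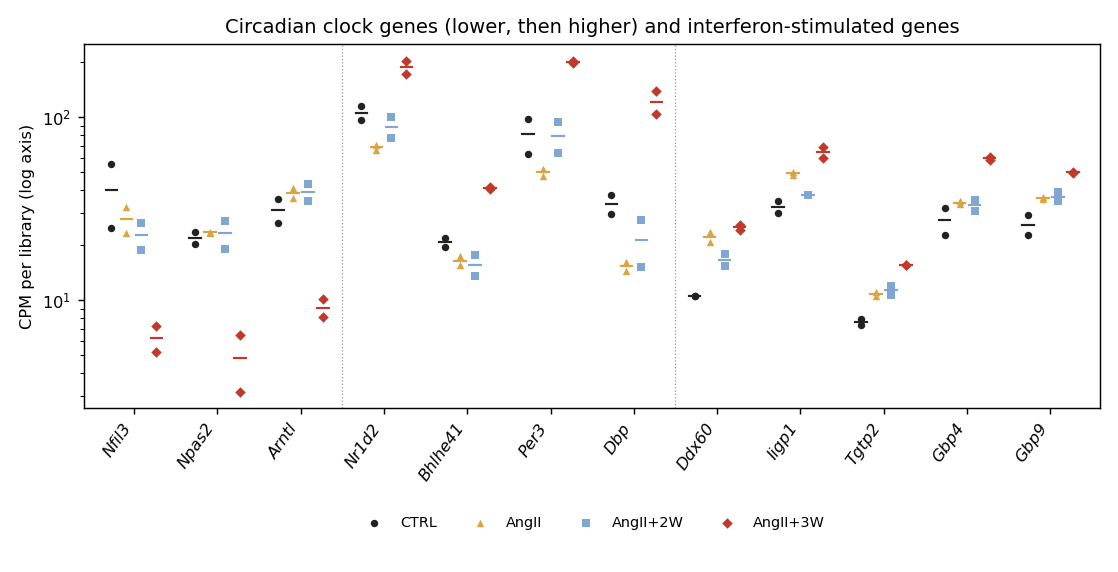
CPM per library (y axis, log scale) of the clock genes that were lower (left), the clock genes that were higher (middle) and the interferon-stimulated genes (right) at an FDR below 0.1, with 2 points and a bar at their mean for each group. In the clock genes the AngII+3W points lie apart from all other groups, whereas in Ddx60 the AngII points lie near the AngII+3W points.

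Interferon-regulated promoters often hold GAAANNGAA, the core of the interferon-stimulated response element. RefSeq promoters were found for 2 of the 5 called interferon genes, Ddx60 and Tgtp2, and both held the motif on at least 1 strand, against 9.76% of all genes with a promoter in the table and 22.7% of all higher genes at an FDR of 0.1. The stretches of Ddx60 (chr8:61927994-61928086, plus strand) and Tgtp2 (chr11:49064234-49064322, minus strand) are shown because these are 2 of the 3 higher genes at an FDR of 0.05. Capitals mark the motif.
Ddx60: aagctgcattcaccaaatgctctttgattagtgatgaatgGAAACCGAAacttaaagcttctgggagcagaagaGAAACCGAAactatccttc
Tgtp2: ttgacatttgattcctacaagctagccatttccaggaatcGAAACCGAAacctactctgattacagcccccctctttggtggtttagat
The matches start at -53 and -19 in Ddx60 and at -70 in Tgtp2, and all of them read GAAACCGAA.

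The other higher genes at an FDR of 0.1 came from several processes. Ighg2b, the constant region of an immunoglobulin G heavy chain, had the largest increase, with 2 and 5 counts in CTRL and 28 and 26 counts in AngII+3W (3.07, SE 0.44, FDR 0.0501). It was the only call among 12 constant region genes, whose median was 0.84, while the summed share of B and plasma cell markers was 0.0200 and 0.0109% in AngII+3W and 0.0107 and 0.0165% in CTRL. Igha was at 3.41 and 17.4 CPM in CTRL and at 19.2 and 64.2 CPM in AngII+3W (2.00, FDR 0.466), and Jchain, the joining chain, was at 1.10 (FDR 0.452). Rundc3b (0.487 and 0.565 CPM in CTRL, 2.20 and 2.36 CPM in AngII+3W, 2.10, FDR 0.0692), the fatty acid elongase Elovl3 of brown adipocytes (3.22 and 3.95 CPM, then 15.2 and 8.76 CPM, 1.74, FDR 0.0986) and Cdh19, a cadherin of Schwann cells (7.89 and 5.08 CPM, then 21.3 and 14.7 CPM, 1.47, FDR 0.0848), were the next largest outside the clock genes. The share of brown adipocyte markers was 0.231 and 0.179% in AngII+3W and 0.184 and 0.274% in CTRL, and that of Schwann cell markers was 0.0213 and 0.0250% against 0.0198 and 0.0168%. Acot4, an acyl-CoA thioesterase, had 11.4 and 10.3 CPM in CTRL and 27.4 and 20.2 CPM in AngII+3W (1.14, FDR 0.0603).

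Me1, the malic enzyme that supplies NADPH for fatty acid synthesis, was among the most abundant of the higher genes, at 454 and 475 CPM in CTRL and 843 and 1095 CPM in AngII+3W (1.06, SE 0.18, FDR 0.0657). Of 18 genes for lipid synthesis it was the only call, 13 were above 0 and the median was 0.35. The elongase Elovl6 was at 1.10 (FDR 0.104) and Srebf2 at -0.69 (FDR 0.128). White adipocyte markers made up 0.972 and 0.933% of counts in AngII+3W and 0.809 and 1.02% in CTRL.

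Lists that bear on inflammation, proliferation and chromatin gave few calls. Among all genes tested, 1.23% were lower and 0.198% were higher at an FDR of 0.1. Few or no calls in lists of this size are near that share and are no result about these processes. The same holds for the lists of the next paragraphs. Of 23 chemokine and adhesion genes none was called, and Icam1, an endothelial adhesion molecule, was at 16.9 and 17.4 CPM in CTRL and 12.4 and 17.6 CPM in AngII+3W (-0.19, FDR 0.781). Cxcl12 was at 0.60 (FDR 0.103), Ccl6 at -0.59 (FDR 0.571) and Ccl9 at -0.41 (FDR 0.607). Ptprc, which encodes the leukocyte marker CD45, was at 32.9 and 31.5 CPM in CTRL and 44.0 and 48.0 CPM in AngII+3W (0.51, SE 0.18, FDR 0.291), so that the groups did not overlap but the difference did not pass the test. Of 18 NF-kB genes only the inhibitor Nfkbia was called, and it was lower (-0.75, FDR 0.0841). The subunit Rela was at -0.46 (FDR 0.360) and Ptgs2 at -1.19 (FDR 0.456).

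Of 25 cell cycle genes none was called and the median was 0.11. Mki67, the proliferation marker, was at 11.0 and 12.3 CPM in CTRL and 10.5 and 14.6 CPM in AngII+3W, with overlapping groups (0.10, SE 0.21, FDR 0.880). Ccnb1 was at 0.53 (FDR 0.531), Rrm2 at 0.38 (FDR 0.591) and Pcna at -0.22 (FDR 0.526). Of 13 genes for the histone methyltransferase complex PRC2 and the opposing demethylases none was called and the median was 0.04. Ezh2, the catalytic subunit, was at 16.9 and 15.8 CPM in CTRL and 20.6 and 18.6 CPM in AngII+3W (0.26, SE 0.13, FDR 0.467), Mtf2 at 0.48 (FDR 0.228) and Suz12 at 0.40 (FDR 0.421). Of 25 histone deacetylases and acetyltransferases none was called either, with Hdac5 at -0.49 (FDR 0.293), Hdac9 at -0.73 (FDR 0.300) and Crebbp at -0.25 (FDR 0.490).

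Of 20 genes for the renin-angiotensin system none was called, and the median was -0.16. The peptidase Mme was at 0.39 (FDR 0.488), Ctsa at -0.34 (FDR 0.425) and Ren1 at -0.59 (FDR 0.487). Of 10 NADPH oxidase genes none was called, with Cyba at -0.63 (FDR 0.427), Duox2 at 0.90 (FDR 0.620) and Nox4 at -0.46 (FDR 0.657). The 13 protein-coding genes of the mitochondrial genome had no call and a median of 0.49, with mt-Co3 at 1.39 (FDR 0.268), mt-Nd5 at 0.66 (FDR 0.443) and mt-Nd6 at 0.49 (FDR 0.536), and the mitochondrial share was largest in AngII+3W replicate 1, as given above.

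**Figure D5:**
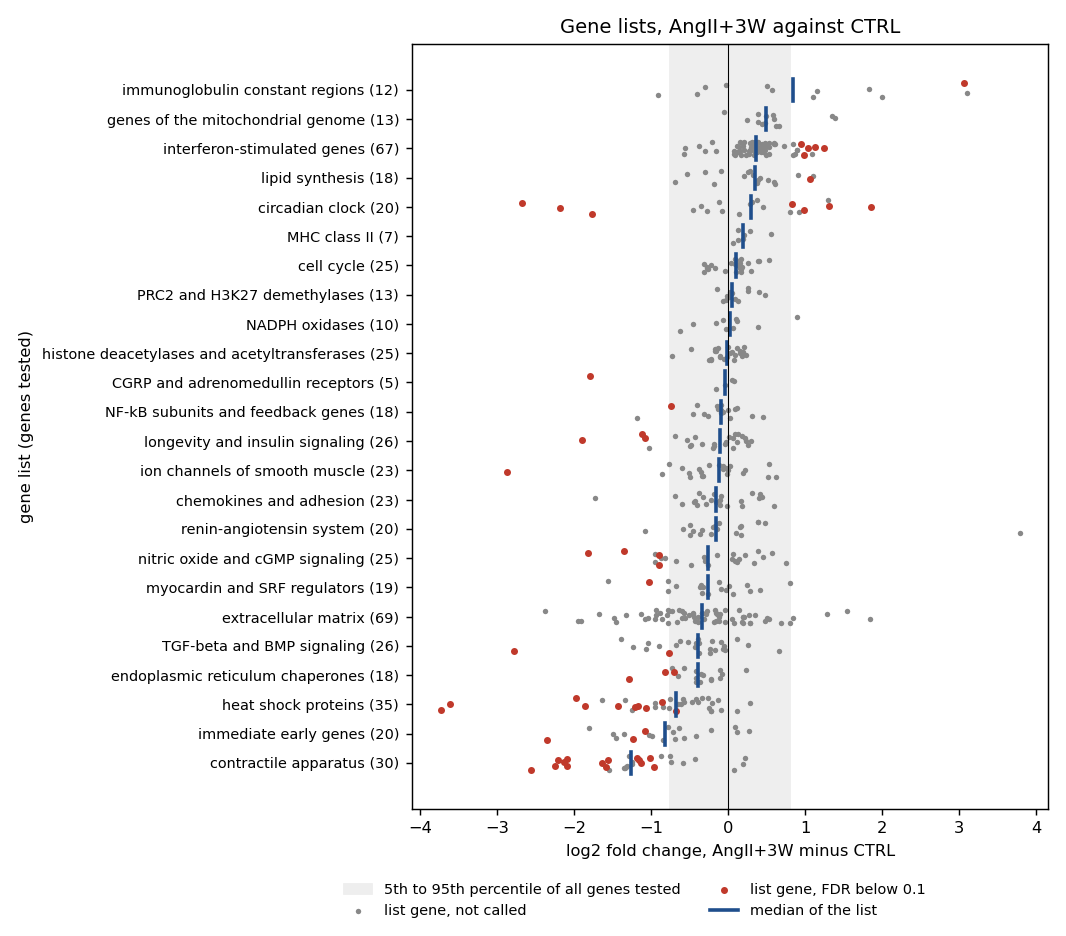
Log2 fold change of AngII+3W over CTRL (x axis) for every tested gene of 24 lists (y axis, number of genes in brackets), with genes called at an FDR below 0.1 in red, other genes in grey, and the median of each list as a blue bar. The shaded band shows the spread of single genes, from the 5th to the 95th percentile of all genes tested (-0.76 to 0.80), and is no scale for the medians. The contractile list holds 14 red points and the heat shock list 10, all to the left of 0.

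AngII, AngII+2W and AngII+3W were all compared with the same 2 CTRL libraries, so that their differences from CTRL are not independent, and they are given side by side only. The contractile median was -1.61 for AngII, -0.98 for AngII+2W and -1.27 for AngII+3W. Acta2 was at -2.18, -1.35 and -2.56 in this order, Myl9 at -2.08, -1.08 and -2.25, and Hspb1 at -1.54, -1.07 and -1.97. The direct difference of AngII+3W from AngII was -0.38 in Acta2 (FDR 0.529), -0.17 in Myl9 (FDR 0.677) and -0.43 in Hspb1 (FDR 0.157), none of which passed the threshold. Of the 49 genes, 6 differed between AngII+3W and AngII at an FDR of 0.05, as did 276 of all 17182 genes tested. Because 46 of the 49 were called for low values in these AngII+3W libraries, the direction of the 6 is not independent evidence. All 6 were lower in AngII+3W. They were Arntl, Hist1h2br, Crip1, Cdkn1a, Emb and Klhl25. Crip1, for example, was at 57.2 and 62.8 CPM in AngII and at 25.3 and 25.4 CPM in AngII+3W, with a direct difference of -1.24 (SE 0.12, FDR 0.0145). This set depended on the setting. Of 18 alternatives, Arntl and Crip1 missed the threshold in 2 each, Emb and Cdkn1a in 5 each and Klhl25 in 7. Hist1h2br missed it in 4 of 17. Lgr6, which was higher in AngII+3W than in AngII (0.80), lay just above the threshold (FDR 0.0508).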

How the data were processed

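RNA was measured by sequencing in 8 libraries of pooled mouse aortas, 2 per group. The authors estimated transcript abundance with Salmon on mouse build GRCm38.p6 and deposited expected counts per gene, which were rounded to whole numbers here. Library totals were between 18130441 and 21498200. Genes were kept by filterByExpr, normalized by TMM and tested with the quasi-likelihood F test of edgeR 4.0.16 (R 4.3.3), all 8 libraries in 1 fit, with Benjamini-Hochberg adjustment over 17182 genes. The residual degrees of freedom were 4, and p-values measure the spread between libraries of pooled mice. A count of 3 was taken as the floor. The procedure was tested on simulated data. Near-identical transcripts were sought with blastn 2.17.0 (at least 95% identity over at least 50% of the longest transcript). Named genes were all those below an FDR of 0.05, the genes with the smallest p or largest change in each direction, from each list the called members and the 3 with the smallest p, and genes the study followed up. Acta1, Smtn, Des, Eln, Hist1h2bq, Tgtp1, Clock, Nr1d1, Isg15 and Isg20 were added after their values were seen. The members and lists were chosen with earlier results of these data known. Alternatives covered normalization, filters on low counts, other edgeR tests, DESeq2, limma-voom and removal of muscle marker genes. They also covered the samples fitted, the replicate block and leaving out each library. A fit that leaves 1 library in a group assumes that it varies like the other groups.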

Additional observations from a re-analysis of the deposited data

Results flagged for a closer look

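Among the genes named in the report, 21 differed between AngII+3W and AngII at an FDR of 0.05 in a direct test. It was made within the same fit (edgeR's quasi-likelihood test), where 276 of all 17182 genes tested passed. The difference of the 21 genes from CTRL was thus not the same at both times. Many of the named genes were picked by their AngII+3W values, which this test uses again. AngII+3W and AngII were compared with the same CTRL libraries, and the values below are log2 fold changes of AngII+3W over AngII.

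Clock genes were lower in Arntl (-2.08, FDR 0.0145), Npas2 (-2.28, FDR 0.0262) and Nfil3 (-2.16, FDR 0.0493) and higher in Dbp (2.98, FDR 0.0145), Nr1d2 (1.46, FDR 0.0206), Bhlhe41 (1.32, FDR 0.0209) and Per3 (2.00, FDR 0.0209). Genes of dividing cells were lower, with Mki67 at -2.20 (FDR 0.0145) and Ccnb1 at -1.61 (FDR 0.0447). The mean CPM of Mki67 was 57.5 for AngII, 12.6 for AngII+3W and 11.7 for CTRL. Chaperones of the endoplasmic reticulum were lower in Manf (-1.30, FDR 0.0206), Sdf2l1 (-1.94, FDR 0.0226) and Calr (-1.06, FDR 0.0252).

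The remaining genes were the LIM protein Crip1 (-1.24, FDR 0.0145), Hist1h2br (-3.93, FDR 0.0206), which shares sequence with Hist1h2bq, Emb (-2.30, FDR 0.0209), the chemokine Ccl9 (-2.02, FDR 0.0266), Cdkn1a (-1.66, FDR 0.0308), Ighg2b (-1.94, FDR 0.0410), the Schwann cell cadherin Cdh19 (1.71, FDR 0.0413), Klhl25 (-1.02, FDR 0.0428) and Serpina3i (-4.71, FDR 0.0447), whose AngII+3W libraries held 0 and 1 counts, so that its fitted value is no bound.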

How the results depend on the processing

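None of the 49 genes below an FDR of 0.05 changed direction under any alternative that gave it a value. Their libraries do not overlap between AngII+3W and CTRL, which largely fixes this outcome in advance. The number of genes called, 49 at an FDR of 0.05 and 246 at an FDR of 0.1, depended strongly on the setting. The cause was not tested. In this order, it was 1 and 148 with library totals in place of TMM, 200 and 395 when all genes with 1 count or more were tested, 119 and 342 with genes of at least 10 counts in every library, 587 and 745 with DESeq2, and 556 and 742 with the likelihood ratio test of edgeR. It was 0 and 0 when only CTRL and AngII+3W were fitted (1302 genes at an unadjusted p below 0.05). The share of lower genes among those called at an FDR of 0.05 was 93.9%, against 81.6% with DESeq2 and 76.8% with the likelihood ratio test. Leaving out 1 library gave between 0 and 463 genes at an FDR of 0.05, and between 0 and 952 at an FDR of 0.1. Without AngII+3W replicate 1, which carried striated muscle RNA, it gave 1 and 40 genes. With all libraries kept but skeletal and cardiac muscle marker genes removed, 57 and 275 genes were called, with all 49 among the 57. With DESeq2 size factors in edgeR, 46 and 217 genes were called, and with limma-voom 44 and 236. The newer form of edgeR's quasi-likelihood test, in place of the older form used here, gave 53 and 284. With the replicate block, 4 and 164 genes were called. Libraries with the same number came from different mice, and the correlation of their deviations between AngII+3W and CTRL was 0.154. Whether libraries with the same number were handled together is not given in the labels and was not tested. With only CTRL and AngII+3W and the replicate block, chosen after seeing the data, 0 and 1 genes were called.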

Other observations

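Genes of other tissues were unevenly spread over single libraries, and the following were chosen after their values were seen. Alb, which encodes the albumin of the liver, had 1 and 579 counts in CTRL and 17 and 1 counts in AngII+3W. Bpifa1, a secreted protein of the airway epithelium, had 3521 counts in AngII+3W replicate 1 and 23 in replicate 2, against 2 and 0 counts in CTRL. AngII+3W replicate 1 was thus the library with the most counts of both Bpifa1 and the skeletal muscle actin gene Acta1 among the 4 libraries compared.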
